A study of Caenorhabditis elegans with 4 samples.

Results

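Binding sites of the transcription factor DVE-1 that stood in groups along the chromosome were described in Caenorhabditis elegans. They were chosen from the combined peak list of the series by position alone. Neighbouring peaks on a chromosome were linked where fewer than 2000 bp lay between them, and the peaks under 1500 bp wide in linked runs of 3 or more were kept. This gave 478 peaks of the 3702 in the combined list (12.9%), in 169 runs. They are called clustered peaks here. The 2052 peaks under 1500 bp with no linked neighbour, called unlinked, served for comparison, and 806 further peaks of that width stood in runs of 2.

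The method was ChIP-seq, the sequencing of DNA that is precipitated together with a protein. It was applied to L4 larvae, all hermaphrodites of strain OP398, raised at 20 °C on plates with E. coli HB101. The worms carried the unc-119(ed3) mutation on chromosome III and the transgene wgIs398, a dve-1::TY1EGFPFLAG fusion brought in by bombardment with a rescuing unc-119(+) copy. The genotype lists no mutation of dve-1 itself. All libraries share this strain, transgene and stage, and the design has no untagged or second strain. Chromatin came from whole worms, so sites bound in different tissues cannot be told apart. There were 2 ChIP libraries, made with antibodies against GFP, and 2 input libraries. Whether the replicates were separate cultures is not stated in the labels, so differences between them can be technical. A peak list was at hand for ChIP replicate 1 (1550 peaks), for ChIP replicate 2 (2142 peaks) and for the combination. The input libraries were not analysed here. A peak was given by its position and the q-value of the authors' caller, where a lower q-value means a stronger peak, and no depth of the libraries is known.

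DVE-1, a homeodomain-type factor, is best known from the mitochondrial unfolded protein response, the programme that raises chaperones and other protective genes when mitochondria are stressed. In that response it acts together with the ubiquitin-like protein UBL-5 and beside the bZIP factor ATFS-1. Several sites of a factor close together are known from promoters and enhancers in many animals. A broad bound stretch can also appear as several neighbours in a peak list, because a caller divides the signal where it dips. All coordinates are in WormBase WS180. The annotation given for this work uses another assembly and came without a genome sequence, so no gene, exon or intron was assigned to a site and no sequence is printed.

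Most runs were short. Of the 169 runs, 123 held 3 peaks, 31 held 4, 9 held 5, 3 held 6, 2 held 7 and 1 held 9. The median span from the first base to the last was 4899 bp (quartiles 3836 and 6679 bp), with a range from 1677 to 19203 bp. Together the runs spanned 954 kb, and their peaks covered 63.7% of it. The shortest run lay on chromosome III from 5813522 to 5815198. The runs held 579 peaks in all, of which 101 were 1500 bp or wider and are therefore not counted as clustered peaks. Broad peaks stood in 74 runs, and the other 95 runs held narrow peaks only. No run consisted of broad peaks alone.

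**Figure D1:**
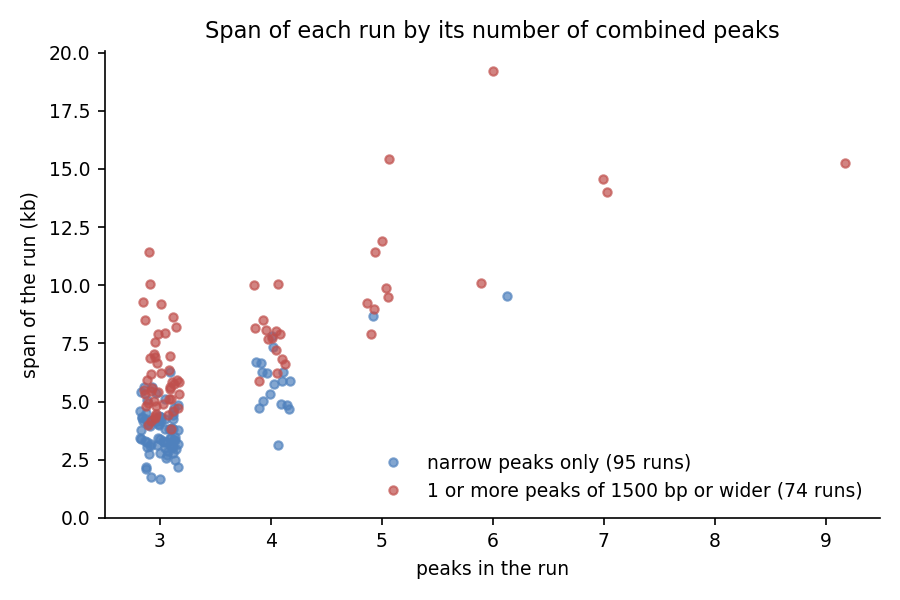
Span of each of the 169 runs in kb (y axis) against its number of combined peaks (x axis, points spread sideways for visibility), with runs of narrow peaks only in blue and runs with at least 1 peak of 1500 bp or wider in red. Runs of 3 had a median span of 4294 bp, and the longest run, at 19203 bp, held 6 peaks.

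The rule fixed the upper limit of the gaps. No neighbours in the combined list were closer than 202 bp, and the smallest gaps in the lists of replicates 1 and 2 were 200 and 201 bp. Neighbours in all 3 lists were thus at least 200 bp apart. Within runs the 410 gaps had a median of 734 bp (quartiles 358 and 1233 bp), and 156 of them (38.0%) were under 500 bp. In runs of 2 the median gap was 828 bp, and 27.0% were under 500 bp. The midpoints of neighbours within runs were a median of 1802 bp apart. Over the whole combined list 877 of 3696 neighbouring pairs were linked (23.7%). Gaps of 1500 to 1999 bp were found 159 times and gaps of 2000 to 2499 bp 129 times, with no break at the limit of 2000 bp.

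The pairs nearest to the limit differed widely in strength on either side. Inside it, 1995 bp on chromosome III lay between peaks of q = 1.39e-05 and q = 5.94e-47. Outside it, 2011 bp on chromosome IV lay between peaks of q = 1.22e-12 and q = 2.34e-52. The last pair inside the limit lay on X from 14501932 to 14506310, with 1999 bp between peaks of q = 1.76e-13 and q = 8.89e-09. The first pair outside it lay on chromosome IV from 7313966 to 7317139, with 2000 bp between peaks of q = 2.21e-11 and q = 9.80e-06. The widest clustered peak, on chromosome I from 4911275 to 4912768, was 1494 bp wide (q = 1.39e-13). The narrowest peak in a run that missed the width limit, on chromosome II from 8486547 to 8488057, was 1511 bp wide (q = 1.42e-16).

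The run with most peaks lay on chromosome III from 13056658 to 13071917 and held 9 peaks over 15260 bp. Strong and weak peaks were mixed along it. Its last peak, 2571 bp wide and too broad to count as clustered, was the strongest (q = 8.86e-35). Among the 8 clustered peaks, the strongest was the fourth in order, 585 bp wide with q = 3.90e-18. The sixth, 866 bp wide, was the weakest (q = 0.000132). Replicate 1 had 4 peaks in this span and replicate 2 had 5. Counted from the left, peaks 4, 5, 8 and 9 were found in both replicates and peak 3 in replicate 2 alone. Peaks 1, 2, 6 and 7 were in neither replicate list.

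A run of 7 on chromosome III, from 3862901 to 3876911, held the strongest clustered peak of all. That peak, from 3866536 to 3867811, was 1276 bp wide with q = 5.09e-74. It was also strong in the single lists, at q = 5.02e-48 in replicate 1 and q = 5.91e-51 in replicate 2. Of the other clustered peaks of this run, those from 3869066 to 3870166 (q = 6.07e-12) and from 3874927 to 3875983 (q = 1.48e-13) were in both replicates. The remaining 3, with q-values of 4.77e-06, 0.000152 and 7.51e-05, were in neither. The presence of a peak in the replicates followed its strength in this run.

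The other run of 7, on chromosome IV from 8525430 to 8539977, was dominated by broad peaks. A peak of 4391 bp (q = 1.33e-104) and another of 3898 bp (q = 2.66e-45) stood in it beside 4 clustered peaks of 311 to 992 bp. Its first peak, 1539 bp wide with q = 1.22e-11, was in neither replicate. The lists divided the stretch differently. The 4391 bp peak corresponded to 2 peaks in replicate 1 and 3 in replicate 2, and the 3898 bp peak to 3 peaks in replicate 1 and 1 in replicate 2. The combined peaks from 8532818 to 8533331 and from 8533541 to 8534532 were joined by a single peak in replicate 2, from 8532823 to 8533776 (q = 6.41e-08).

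The run of 6 on chromosome III from 10710978 to 10720518 held narrow peaks only. Its strongest peak, from 10717054 to 10718406, had q = 7.34e-37 and was in both replicates, at q = 3.36e-12 and q = 1.16e-20. Each replicate had 4 peaks in this span, and they marked the same 4 combined peaks. Peaks 2 and 3, with q-values of 1.89e-07 and 9.54e-08, were in neither list. The run of 6 on chromosome IV from 9667966 to 9678072 had 4 peaks in replicate 1 and 6 in replicate 2. All 6 of its combined peaks were in replicate 2. Peaks 2 and 5, at q = 2.72e-05 and q = 1.52e-10, were missing from replicate 1.

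**Figure D2:**
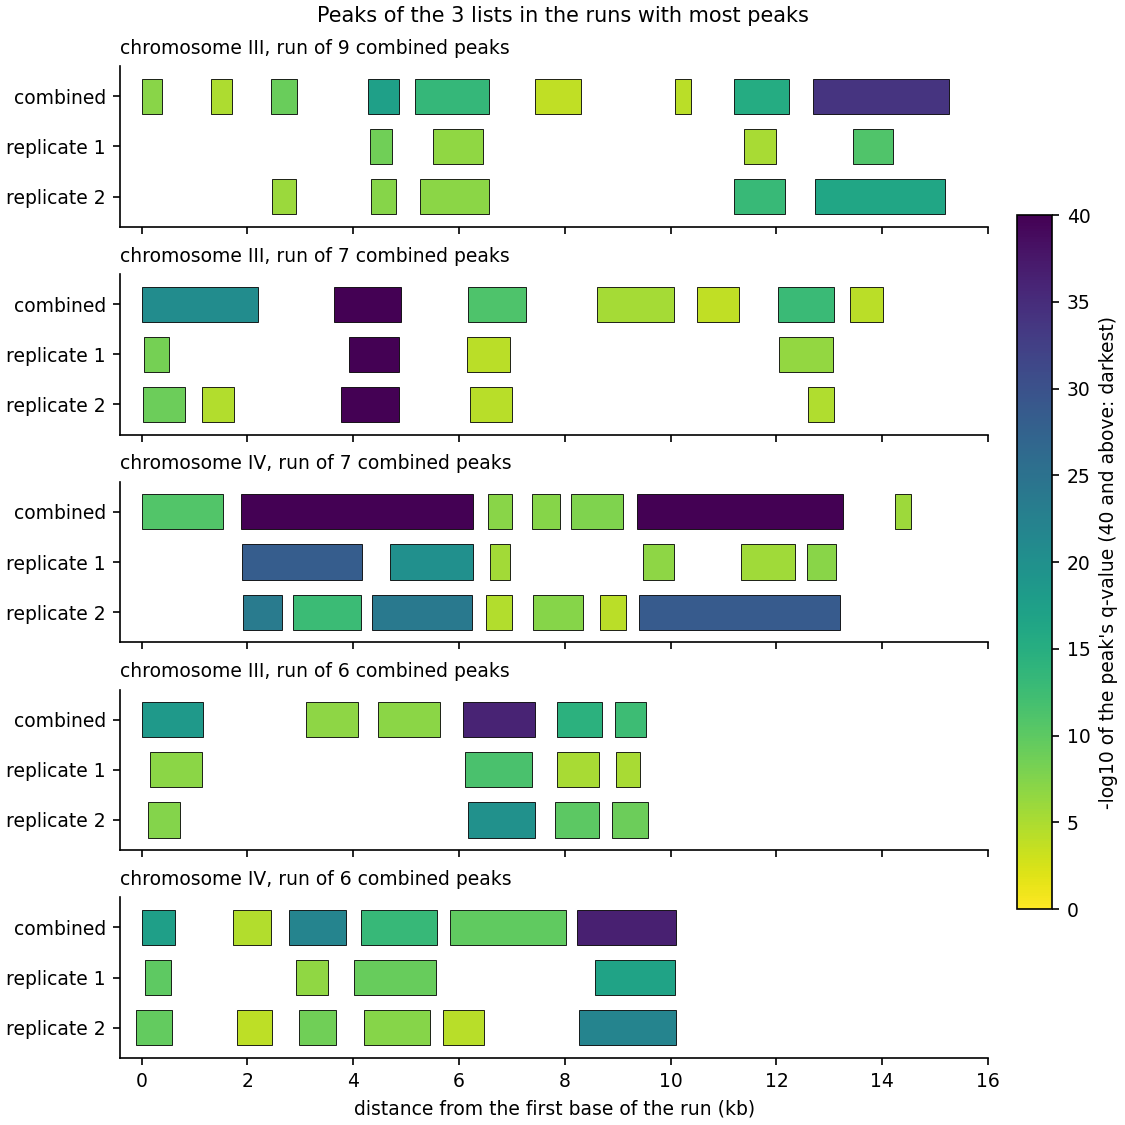
Peaks of the combined list and of replicates 1 and 2 in the 5 runs with most peaks, drawn to scale by distance in kb from the first base of the run, with colour giving -log10 of each peak's q-value (darkest at 40 and above). The run of 9 had 4 peaks in replicate 1 and 5 in replicate 2. Every combined peak with a q-value below 1.22e-11 has a counterpart in both replicates. The peak at that value, the first of the run of 7 on chromosome IV, has a counterpart in neither, and neither have several paler ones.

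The longest span belonged to a run of 6 on chromosome IV from 5650690 to 5669892, at 19203 bp. It held 4 broad peaks of 1829 to 4931 bp, all in both replicates, between clustered peaks at its ends of 1117 bp (q = 2.56e-07) and 414 bp (q = 6.61e-05), both in neither replicate. The next longest lay on X from 6735458 to 6750871, with 5 peaks over 15414 bp. Its only clustered peak, 1432 bp wide with q = 0.000159, was in neither replicate, while its 4 broad peaks reached q = 7.99e-51. In both of these runs the clustered peaks were weak outer peaks.

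Runs without any broad peak also held strong sites. The strongest such run lay on chromosome II from 14039658 to 14045547 and held 4 peaks. Its first peak had q = 2.78e-42, the next had q = 3.96e-10 and q = 3.91e-13, and all 3 were in both replicates, whereas the last, 392 bp wide with q = 4.53e-05, was in neither. On chromosome I, a run of 4 from 7472288 to 7479613 had strong inner peaks, at q = 3.69e-40 and q = 1.02e-15. Both inner peaks were in both replicates, and the outer peaks, at q = 1.88e-05 and q = 8.24e-06, were in neither. On chromosome IV, from 12840023 to 12843444, a middle peak of 552 bp with q = 2.38e-39 was in both replicates and stood between peaks of q = 8.49e-09 and q = 0.000159 that were in neither. A second run on chromosome IV, from 7486173 to 7489417, had a pair of strong peaks 1308 bp apart, at q = 2.88e-29 and q = 3.75e-24, both found in both replicates. The last peak of that run, at q = 2.14e-08, was in replicate 2 alone.

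Of the 478 clustered peaks, 195 were found again in the list of replicate 1, with an overlap of 1 bp or more (40.8%, exact 95% interval 36.4 to 45.4), against a background of 35.1% among all 3336 combined peaks under 1500 bp. Replicate 2 held 283 (59.2%, interval 54.6 to 63.6), against 51.8%. Both replicates held 171 (35.8%, interval 31.5 to 40.3), against 30.1%, and neither held 171 (35.8%, with the same interval), against 43.2%. Clustered peaks were thus present in the replicate lists slightly more often than narrow peaks in general. Both replicates held 26.7% of the unlinked peaks (interval 24.8 to 28.6), and neither held 47.3% (interval 45.1 to 49.5). Peaks in runs of 2 resembled the clustered peaks in value, with 35.6% in both (interval 32.3 to 39.0) and 37.2% in neither. The replicate lists come from the libraries behind the combined list, so these shares are descriptions without a test, and the intervals cover counting error only. Neighbouring peaks are not independent.

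Linked peaks had lower q-values than unlinked ones, in runs of 2 as in longer runs. A q-value depends on width too, and linked peaks were wider, as given below. The part of width in this difference, and in the groups by q-value used here, was not tested. For clustered peaks the median q-value was 4.63e-08, against 6.40e-07 for unlinked peaks, and 52.3% against 40.9% belonged to the stronger 50% of the combined list. Narrow peaks in runs of 2 had a median q-value of 3.85e-08, and 53.6% of them belonged to the stronger 50%. When all combined peaks were divided into 4 groups by q-value, the clustered and unlinked shares in both replicates lay close together within each. In the strongest group both replicates held 116 of 122 clustered peaks (95.1%, interval 89.6 to 98.2), beside 94.6% of 336 unlinked peaks. In group 2 the shares were 38.3% of 128 (interval 29.8 to 47.3) and 39.96% of 503 (interval 35.7 to 44.4). In group 3 they were 5.22% of 115 and 4.52% of 598. In the last, weakest group 0 of 113 clustered peaks were in both, which allows a share of up to 3.21% by the exact interval, and 1 of 615 unlinked peaks was.

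**Figure D3:**
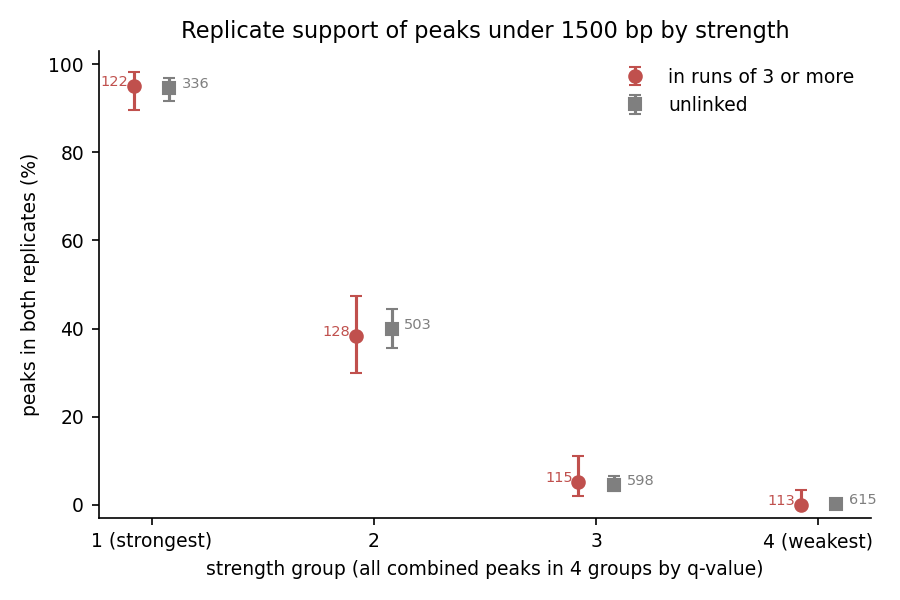
Share of peaks under 1500 bp found in both replicates, in percent, for clustered peaks (circles) and unlinked peaks (squares) in 4 groups of all combined peaks by q-value, with the number of peaks beside each point and exact 95% intervals as bars. The intervals of both sets overlap in every group, and the shares fall from 95.1% and 94.6% in the strongest group to 0% and 0.163% in the weakest.

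Weighting the unlinked peaks to the strengths of the clustered peaks gave an unlinked share of 36.0% in both replicates, beside 35.8% for the clustered peaks. For replicate 1 the weighted unlinked share was 40.5%, beside 40.8%, and for replicate 2 it was 56.7%, beside 59.2%. For neither replicate it was 38.8%, beside 35.8%. Within groups some shares differed in opposite directions. Replicate 1 held 42.2% of clustered against 49.7% of unlinked peaks in group 2, and 17.4% against 10.2% in group 3. The share in neither was 15.6% against 11.9% in group 2 and 51.3% against 58.2% in group 3. The excess of 9.12 points in both replicates over unlinked peaks became -0.207 points after this weighting over 4 groups. In the weakest group fewer clustered than unlinked peaks were missing from both lists, 81.4% (interval 73.0 to 88.1) against 91.2% (interval 88.7 to 93.3), and these intervals did not overlap. Clustered peaks of that group were also wider, as given next, and a wider peak can meet an overlap of 1 bp more easily; its part in this difference was not tested.

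Clustered peaks had a wider median than unlinked ones in every strength group. The median width was 638.5 bp (95% interval of the median 605 to 690) against 452 bp (interval 440 to 461), and 564 bp (interval 536 to 590) in runs of 2. In the strongest group the medians were 887.5 bp (interval 726 to 983) for clustered and 604.5 bp (interval 562 to 637) for unlinked peaks. In group 2 they were 704 bp (614 to 782) and 479 bp (457 to 510), and in group 3 561 bp (487 to 622) and 427 bp (410 to 446). In the weakest group they were 494 bp (403 to 569) and 389 bp (375 to 407), with intervals that overlapped. The width limit of 1500 bp belongs to the rule and holds for both sets. The width of the combined peaks comes from the data that chose the runs, so the difference is a description.

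**Figure D4:**
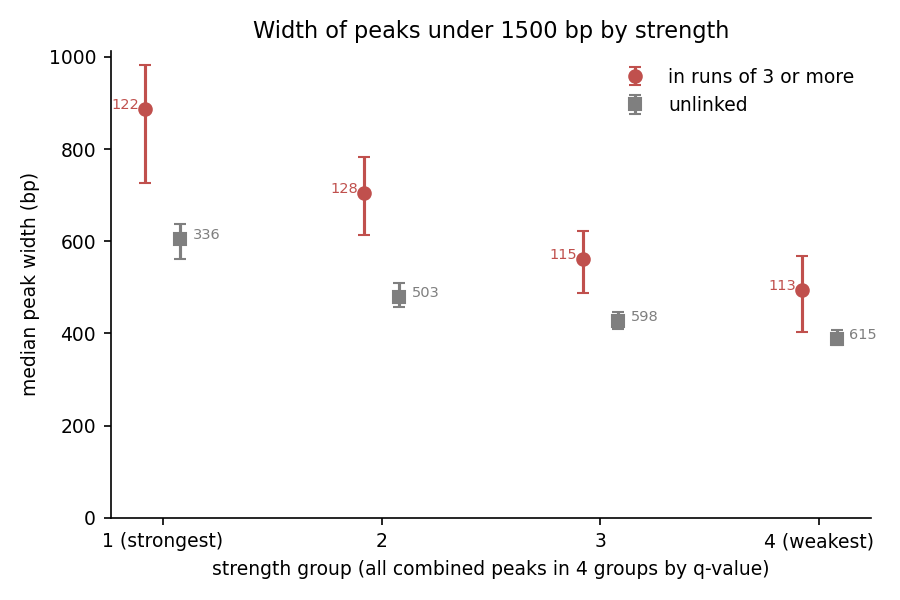
Median width in bp of clustered peaks (circles) and unlinked peaks (squares) under 1500 bp in 4 groups of all combined peaks by q-value, with numbers of peaks beside the points and 95% intervals of the median as bars. Clustered peaks had the wider median in each group, from 887.5 against 604.5 bp in the strongest to 494 against 389 bp in the weakest.

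Run peaks were also the wider ones when the linking rule was applied to each replicate list alone. Replicate 1 gave 42 runs of 3 or more, whose 103 narrow peaks had a median width of 640 bp, against 491.5 bp for its 988 unlinked narrow peaks. Replicate 2 gave 62 runs, whose 169 narrow peaks had a median width of 663 bp, against 459.5 bp for 1314 unlinked ones. Of the 103 narrow run peaks of replicate 1, 97 had a counterpart in replicate 2 (94.2%, interval 87.8 to 97.8), and 86.1% of its unlinked narrow peaks did (interval 83.8 to 88.2). For replicate 2 the shares found in replicate 1 were 64.5% (interval 56.8 to 71.7) and 56.6% (interval 53.9 to 59.3). The intervals of run peaks and unlinked peaks overlapped in both replicates. Linked neighbours made up 17.7% of neighbouring pairs in replicate 1 and 19.1% in replicate 2.

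Most combined runs had fewer than 3 separate peaks in each replicate list. Replicate 1 had 3 or more separate peaks in the span of 37 of the 169 combined runs (21.9%, interval 15.9 to 28.9), 2 peaks in 58, 1 peak in 46 and none in 28. Replicate 2 had 3 or more in 69 runs (40.8%, interval 33.3 to 48.6), 2 in 53, 1 in 40 and none in 7. In 34 runs both replicates had 3 or more, and in 6 runs neither had any. A single replicate peak joined neighbouring combined peaks in 7 runs for replicate 1 and in 11 for replicate 2. No replicate peak inside a run's span lay outside the combined peaks.

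The runs of the single lists did not all fall on combined runs either. Of the 42 runs of replicate 1, 25 touched a combined run of 3 or more, and 14 lay over 3 or more combined peaks. Another 21 lay over 2 combined peaks and 7 over 1. Since a run has 3 or more peaks, at least 1 combined peak there overlaps 2 or more of them. This follows by counting alone, unless a peak of the run overlaps no combined peak. Of the 137 peaks in the 42 runs, 1 overlapped no combined peak. Of the 62 runs of replicate 2, 47 touched a combined run, 38 lay over 3 or more combined peaks and 24 over 2. Between the replicates, 25 of the 42 runs of replicate 1 had 3 or more peaks of replicate 2 in their span, 11 had 2 and 6 had 1. Of the 62 runs of replicate 2, 29 had 3 or more peaks of replicate 1, 20 had 2, 7 had 1 and 6 had none.

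Peaks of differing support stood side by side within runs. At least 1 peak was in both replicates in 134 of the 169 runs (79.3%, interval 72.4 to 85.1), and at least 1 was in neither in 123 (72.8%, interval 65.4 to 79.3). Both kinds occurred together in 92 runs (54.4%, interval 46.6 to 62.1). Every peak was in both replicates in 9 runs, and all 9 contained a broad peak. No peak was in either replicate in 6 runs, and all 6 held narrow peaks only. These counts include the broad peaks, of which 78.2% were in both replicates. Over all narrow combined peaks 30.1% were in both and 43.2% in neither. How often groups of unlinked peaks mix both kinds was not counted.

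Among the 9 runs with every peak in both replicates, the shortest lay on chromosome V from 9094054 to 9098854, with a broad peak of 2763 bp (q = 1.78e-26) between clustered peaks of 632 bp (q = 5.13e-11) and 590 bp (q = 1.18e-06). On chromosome III from 10533126 to 10538024, clustered peaks of 590 bp (q = 3.31e-14) and 844 bp (q = 2.16e-10) stood before a broad peak of 2993 bp. On chromosome I from 5311464 to 5316975, a broad peak of 2543 bp (q = 1.85e-41) came first, and the clustered peaks after it had q = 4.91e-17 and q = 9.26e-20. In replicate 2 a single peak (q = 1.48e-34) joined the first 2 of these combined peaks, so that list had 2 peaks in the span. The next lay on chromosome II from 2971326 to 2977085, where 1 clustered peak of 916 bp (q = 4.94e-11) stood beside 2 broad ones, and on chromosome V from 13081081 to 13087014. In the last, clustered peaks of 710 bp (q = 1.01e-14) and 886 bp (q = 1.23e-10) were joined by a single peak of q = 3.94e-12 in replicate 1. Replicate 1 had 2 peaks in that span.

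Strength varied inside a run. The strongest and weakest peaks of a run, broad peaks included, differed by a median of 11.2 units of log10 q (quartiles 6.002 and 22.24). No such range was taken over unlinked neighbours. A peak of the strongest group stood in 113 runs, and in 49 of these a peak of the weakest group stood in the same run. In the 123 runs of 3, the strongest peak was in both replicates in 90 (73.2%, interval 64.4 to 80.8), the second in 50 (40.7%, interval 31.9 to 49.9) and the weakest in 12 (9.76%, interval 5.14 to 16.4). Their median q-values were 6.34e-17, 5.34e-09 and 9.73e-06. Broad peaks are included in these ranks. The ranks use combined q-values from the libraries behind the replicate lists, so a fall in support with rank follows from the ranking. Among unlinked peaks the share in both fell likewise, from 94.6% in the strongest group to 0.163% in the weakest. The strongest peak was the middle one in 45 of the 123 runs (36.6%), the second in 46 (37.4%) and the weakest in 32 (26.0%).

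Rank correlations of strength between neighbours were small. Across 280 neighbouring pairs of narrow peaks within runs, the Spearman rho of q-values was -0.04. It was 0.13 across 352 pairs in runs of 2 and 0.03 across 1498 pairs of unlinked neighbours. Widths were more alike, with rho of 0.32 within runs, 0.21 in runs of 2 and 0.12 between unlinked neighbours. These values are over pairs of peaks that share libraries and, within a run, share peaks with each other, so they are descriptions. The neighbours agreed in being found in both replicates or not in 55.0% of pairs within runs (interval 49.0 to 60.9). This share was 57.7% in runs of 2 (interval 52.3 to 62.9) and 60.9% for unlinked neighbours (interval 58.4 to 63.4), with overlapping intervals. Such agreement depends on the share of peaks in both replicates, which was larger for linked than for unlinked peaks. Agreement was not compared at equal shares.

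Clustered peaks at the ends and inside of runs had intervals that overlapped. The 290 clustered peaks at run ends had a median width of 601.5 bp (interval 570 to 662), and the 188 inside runs had 706.5 bp (interval 618 to 780). In both replicates were 34.5% of the end peaks (interval 29.0 to 40.3) and 37.8% of the inner peaks (interval 30.8 to 45.1). The company of a broad peak went with larger differences. In runs with a broad peak, 171 clustered peaks had a median width of 781 bp (interval 709 to 888), and 46.2% were in both replicates (interval 38.6 to 54.0). In runs of narrow peaks only, 307 clustered peaks had a median width of 585 bp (interval 553 to 618), and 30.0% were in both (interval 24.9 to 35.4). The former were also stronger, with a median q-value of 1.34e-09 against 1.16e-07. By run size, the shares in both replicates were 34.6% in runs of 3, 37.4% in runs of 4 and 39.0% in runs of 5 or more, with overlapping intervals.

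The edges of linked peaks, in runs of 2 as in longer runs, differed more between lists than those of unlinked peaks. Where a clustered peak and a replicate peak overlapped each other and nothing else, starts differed by a median of 51 bp in replicate 1 (182 pairs) and 45 bp in replicate 2 (270 pairs). For unlinked peaks the medians were 37 bp (638 pairs) and 28 bp (980 pairs). Ends differed by 51.5 and 46 bp for clustered peaks and by 35 and 26 bp for unlinked peaks. Starts lay within 100 bp in 69.2% and 75.2% of the clustered pairs and in 84.6% and 86.8% of the unlinked pairs. For narrow peaks in runs of 2 the median start differences were 51 bp (333 pairs) and 36 bp (452 pairs), the end differences 48 and 37 bp, and 72.4% and 79.0% of starts lay within 100 bp. The linked peaks in these pairs were wider, with medians of 779.5 and 688 bp for clustered peaks and 676 and 650.5 bp for runs of 2, against 531.5 and 495.5 bp for unlinked peaks, and the part of width in these differences was not tested. Replicate peaks were narrower than their combined peak, at a median ratio of 0.832 and 0.870 for clustered and 0.872 and 0.910 for unlinked peaks. Of the clustered peaks found in replicates 1 and 2, 12 of 195 and 13 of 283 shared their replicate peak with another combined peak.

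Runs occurred on every chromosome. Chromosome III held 36 runs, V 35, IV 34, II 27, I 22 and X 15. Per length this was 2.61 runs per Mb on III and 0.851 on X, and 1.46 to 1.95 on the other chromosomes. As a share of the narrow combined peaks of the chromosome, clustered peaks made up 17.6% on III (exact limits 14.7 and 20.7) and 9.77% on X (exact limits 7.01 and 13.2). On the other chromosomes the share was 13.2% on II, 13.3% on I, 14.6% on V and 15.2% on IV. Chromosome III also had the most narrow peaks per Mb (46.7) and X the fewest (22.1), and linking by distance gives more runs where peaks are dense. The largest runs had 9 peaks on III, 7 on IV, 5 on II and X, and 4 on I and V.

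Replicate support of clustered peaks differed between chromosomes in value. In both replicates were 47.8% of the 69 clustered peaks on chromosome II and 18.4% of the 38 on X, with 33.7% to 36.3% on the other 4. The shares of unlinked peaks in both were 27.3% on II and 20.1% on X, and those of all narrow peaks 32.4% and 20.3%. On I, III, IV and V the clustered shares were 35.9%, 36.3%, 33.7% and 35.4%. The unlinked shares there were 19.7%, 35.8%, 29.2% and 24.8%. Clustered and unlinked intervals overlapped on each of these 4, on I only narrowly (24.3 to 48.9 against 15.3 to 24.7). On X the interval of the clustered share (7.74 to 34.3) held the share of unlinked peaks, and on II it lay above that of unlinked peaks (35.6 to 60.2 against 22.5 to 32.5). On X 55.3% of clustered peaks were in neither replicate, beside 55.5% of unlinked ones, and on II 27.5% beside 46.0%. The median width was 751.5 bp on X, 752 bp on II and 718.5 bp on I, and 542 to 622 bp on III, IV and V. These chromosome values were not tested.

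Clustered peaks lay in the central 50% of the chromosomes in 336 of 478 cases (70.3%, interval 66.0 to 74.4). The share was 65.4% for peaks in runs of 2 (interval 62.0 to 68.7) and 56.7% for unlinked peaks (interval 54.5 to 58.8). On chromosomes I and V 87.5% of the clustered peaks were central, and on II 55.1%. The right end of a chromosome was taken from its last peak in any of the lists, and the left end was its first base. Linking by distance picks more peaks where peaks are dense, and central shares were not compared at equal density.

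Density along the chromosome went with linking, in runs of 2 as in longer runs. The rule links peaks by distance, so a larger clustered share where peaks are dense is built into it. A clustered peak lay in a window of 1 Mb with a median of 49 combined peaks (quartiles 39 and 59), a narrow peak in a run of 2 in one with 48 (quartiles 36 and 57) and an unlinked peak in one with 40 (quartiles 26 and 52). Of 97 full windows, 65 held the centre of a run and 31 held no clustered peak. When the windows were divided into 3 groups by their number of peaks, clustered peaks made up 4.78% of the narrow peaks in the sparsest group (interval 3.20 to 6.83), 11.1% in the middle (interval 9.27 to 13.2) and 18.9% in the densest (interval 17.0 to 20.8). The Spearman rho between combined and clustered peaks over the 97 windows was 0.77, a description in which both counts hold the same peaks. The windows with most clustered peaks were on chromosome V from 10000001 to 11000000 (19 in a window of 77 peaks) and on chromosome II from 8000001 to 9000000 (18 of 58).

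**Figure D5:**
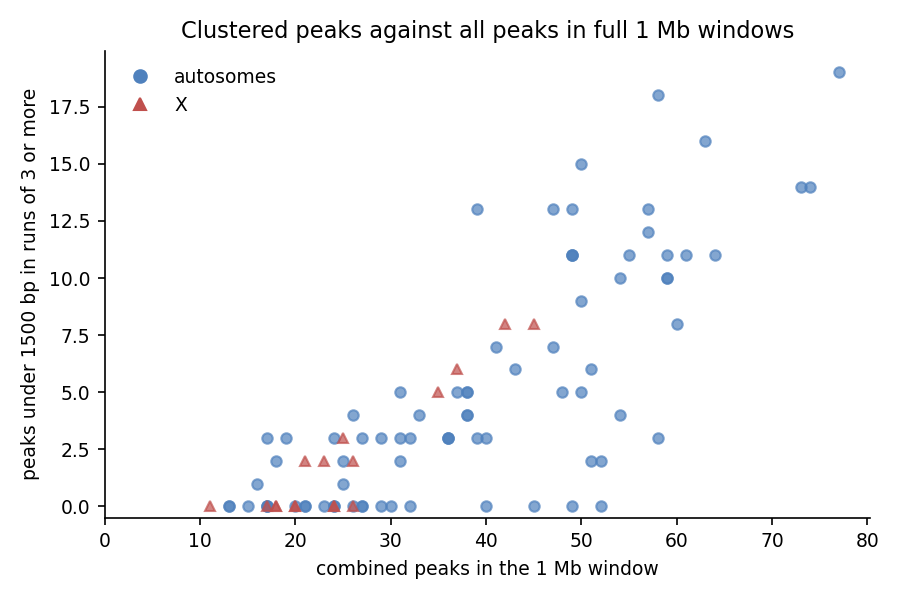
Clustered peaks (y axis, peaks under 1500 bp in runs of 3 or more) against all combined peaks (x axis) in each of the 97 full windows of 1 Mb, with autosomes as circles and X as triangles. The highest point is the window on chromosome V with 77 combined and 19 clustered peaks, and 31 windows lie at 0.

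The comparison with unlinked peaks held within density groups for width. Median widths were 622 bp for clustered and 429 bp for unlinked peaks in the densest windows, 626 and 456 bp in the middle group, and 901.5 and 481.5 bp in the sparsest, where only 28 peaks were clustered. In both replicates were 37.7% of clustered and 27.6% of unlinked peaks in the densest group, 29.8% and 27.8% in the middle, and 50.0% and 23.7% in the sparsest. The 1528 unlinked peaks that shared a 1 Mb window with a clustered peak had a median width of 442 bp, and 26.9% were in both replicates, close to the 26.7% of all unlinked peaks.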

How the data were processed

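The deposited lists name PeakSeq as the peak caller and WormBase WS180 as the build, per the file headers and source column. The number the authors deposited with a peak is its q-value. It depends on depth and width, so it was used to rank peaks within a list. Not given in the sources used here are the version of PeakSeq, the aligner, the thresholds, the control, and how the combined list arose. Positions are 1-based and include both ends. No peak was filtered.

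Runs and overlaps (at least 1 bp) were computed with Python 3.11.15, numpy 2.4.6 and scipy 1.17.1, drawn with matplotlib 3.10.9, and tested on simulated data; 3 of 3 counts equalled those of bedtools 2.31.1. Shares have exact Clopper-Pearson 95% intervals and medians binomial 95% intervals of the order statistics. Windows of 1 Mb took peaks by midpoint, and the shared peak count of 26 occurs in both the sparsest and the middle density group. No test and no random placement was used, because the combined positions that chose the runs come from the same libraries. The members and lists were chosen with earlier results of these data known. Runs are named by 4 rules: the 5 with most peaks (shorter span first), the 5 strongest without a broad peak, the 5 shortest with every peak in both replicates, and the 3 longest. Genes were not assigned.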

Additional observations from a re-analysis of the deposited data

How the results depend on the processing

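The numbers of runs (169) and clustered peaks (478) depended on the rule. They were 90 and 226 with a gap under 1000 bp, 243 and 723 with a gap under 3000 bp, and 46 and 166 in runs of 4 or more. They were 110 and 362 without peaks of 1500 bp or more, and 98 and 246 with combined peaks of q under 1e-05. The rule gave 42 and 62 runs in the lists of replicates 1 and 2. With q under 1e-05 the share in replicate 1 was 54.5%, in replicate 2 76.0%, in both 50.4% and in neither 19.9%. For unlinked peaks at that limit the shares were 45.5%, 67.3%, 39.5% and 26.6%. The median width of clustered peaks was 738 bp with q under 1e-05 and 711 bp in runs of 4 or more. Among clustered peaks in the stronger 50% of the combined list, 66.0% were in both replicates and 8.00% in neither, and among unlinked peaks of that strength 61.9% and 7.28%. With 50% of the combined peak covered, 31.2% of clustered and 25.05% of unlinked peaks were in both. The share in neither was 40.8% to 59.2% without a replicate list, which follows from counting 1 list. The shares in both were 36.3% with gaps under 1000 bp and 34.0% with gaps under 3000 bp, and for unlinked peaks 28.2% and 26.2%. Chosen after seeing the data, a 50% overlap left the runs with 3 or more replicate peaks at 37 and 69, and windows of 0.5 Mb gave a density ratio of clustered to unlinked peaks of 1.30, beside 1.23. No paired analysis was possible because only the ChIP group has peak lists here. Since depth is not known, sites absent from a replicate list may be below detection.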
